A study of Mus musculus with 12 samples.

Results

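The effect of Snail1 knockdown on RNA levels was measured in HC11 cells at 36 h of an in vitro collective migration assay. HC11 is an established mouse mammary epithelial line, and Snail1 is the protein encoded by Snai1. The comparison takes 6 of the 12 libraries of the series by their sample titles. The control group at 36 h holds libraries 1, 3 and 4, with the genotype label WT and a title marked scr, and the knockdown group holds libraries 1, 2 and 3, with the genotype label Snail1 KD. The other 6 libraries are the same 2 kinds of cells at 0 h of the assay. Cells of both kinds were sorted by flow cytometry and left overnight to form aggregates in medium with a low share of serum, epidermal growth factor and insulin, so these agents are common to all groups. The authors' mean columns carry the prefix sh for the knockdown; the construct, the number of clones, and whether libraries stem from separate cultures are not given in the sources used here. P-values therefore measure the spread between these libraries, which may be technical. The labels leave unexplained the word "mix" in the title of control library 4.

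Snail1 is a zinc finger transcription factor that binds E-box sequences and represses epithelial genes such as E-cadherin. It is known as a driver of the epithelial-mesenchymal transition (EMT), in which epithelial cells loosen their junctions, lay down matrix proteins such as fibronectin and gain motility. In mammary epithelium, migration of cells as a group uses parts of this program together with matrix proteases, integrins and growth factor signals, while cell-cell contacts are kept. The series asks what Snail1 does during that collective process.

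Levels are in TPM, the authors' transcript abundance scaled for gene length and to a fixed library total. Of 57180 genes, the 14426 that reached 1 TPM in 3 or more of the 12 libraries entered a limma fit of these 6 libraries alone, on log2(TPM + 1). Adjusted p-values are limma's, two-sided, with Benjamini-Hochberg adjustment over all 14426 genes, and calls are genes with an adjusted p under 0.05. Changes are log2 fold changes, knockdown minus control, on the log2(TPM + 1) scale, which understates the change of genes with low levels. Means are given with the SD over 3 libraries.

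Each library held 13348 to 13569 genes at 1 TPM or more. The first principal component, with 40.2% of the variance, held the knockdown libraries at 30.9 to 38.4 and the control libraries at -48.1, -39.0 and, for control library 3, -13.6. Control library 4 was the middle value of its group in 57.0% of genes, against 23.7% for library 1 and 19.3% for library 3, and its median distance from the mean of the other two was 0.128 on the log2 scale, against 0.244 and 0.273. In the knockdown group the middle value came from libraries 1, 2 and 3 in 40.8%, 34.8% and 24.4% of genes. Whether control library 4 is a pool of the other control material was not tested, and if it is, the group holds 2 independent samples and the p-values overstate the replication. Counts without it are given for gene groups whose larger count, of rises or of falls, it moves by over 1.5 times.

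Epcam, an epithelial surface protein, ranged from 483 to 697 TPM, and the basal keratin Krt14 from 12351 to 20984 TPM. Of 8 fibroblast markers 5 reached 1 TPM in some library: Pdgfra at 4.36 to 11.1 TPM, Col1a1 at 2.29 to 10.3 TPM, Col3a1 at up to 1.56 TPM, Pdgfrb at up to 1.21 TPM and Dcn at up to 1.17 TPM. Lum and Thy1 stood at or under 0.05 TPM and Col1a2 at or under 0.37 TPM. The fibroblast list summed to 13.3 to 24.4 TPM in control and 7.97 to 13.9 TPM in the knockdown. Of 8 immune markers, Cd68 (2.11 to 3.55 TPM) and Lyz2 reached 1 TPM, Ptprc stood at or under 0.08 TPM and Adgre1 was listed at 0, and the list summed to 3.76 to 4.68 TPM in control and 3.91 to 4.27 TPM in the knockdown. Of 8 endothelial and fat markers, Pecam1 (3.52 to 6.98 TPM) and Fabp4 (3.47 to 8.35 TPM) reached 1 TPM, Cdh5 stood at or under 0.02 TPM and Adipoq was listed at 0. That list summed to 7.13 to 14.2 TPM in control and 9.21 to 15.6 TPM in the knockdown. The part of such cells in the results was not tested. Lyz2, a lysozyme of myeloid cells, was the one immune marker called, at 0.86, 0.56 and 0.75 TPM in control against 2.13, 1.48 and 1.77 TPM in the knockdown (log2 fold change 0.69, SE 0.181, adjusted p = 0.0477), and it lost that call when any 1 of the 6 libraries was left out (adjusted p = 0.067 to 0.131). In a limma fit of all 12 libraries, described below, Lyz2 was not called either (adjusted p = 0.449).

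Snai1 (ENSMUSG00000042821) itself was measured first, as a check of the labels. It stood at 2.77, 2.69 and 3.92 TPM in control libraries 1, 3 and 4 and at 0.58, 0.44 and 0.2 TPM in knockdown libraries 1, 2 and 3. The groups did not overlap, and the mean of 0.407 ± 0.192 TPM in the knockdown was 13% of the 3.13 ± 0.688 TPM in control (log2 fold change -1.55, SE 0.206, adjusted p = 0.00681). The exact two-sided permutation p was 0.1, the smallest that 3 libraries against 3 allow. The call held without each of the 6 libraries in turn. A stretch of 120 bases upstream of its transcription start (RefSeq, build GRCm38.p6, chr2:167538012-167538131, plus strand) holds 1 copy of CAGGTG, 126 bases before the start, the E-box that Snail proteins bind, read on the opposite strand and printed in capitals. The stretch is shown because it belongs to the targeted gene and carries that factor's own motif.
Snai1 promoter: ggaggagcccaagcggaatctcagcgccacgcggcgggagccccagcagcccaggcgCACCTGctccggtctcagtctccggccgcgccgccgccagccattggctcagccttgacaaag
Over the window from 250 bases before to 50 bases after the start, CAGGTG on either strand was present in 20.7% of the 9790 tested genes with a promoter entry. It was present in 23.5% of 566 genes called higher in the knockdown, 19.6% of 1026 called lower and 20.7% of those not called, so the genes that moved held the motif at about the share of all genes.

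**Figure D1:**
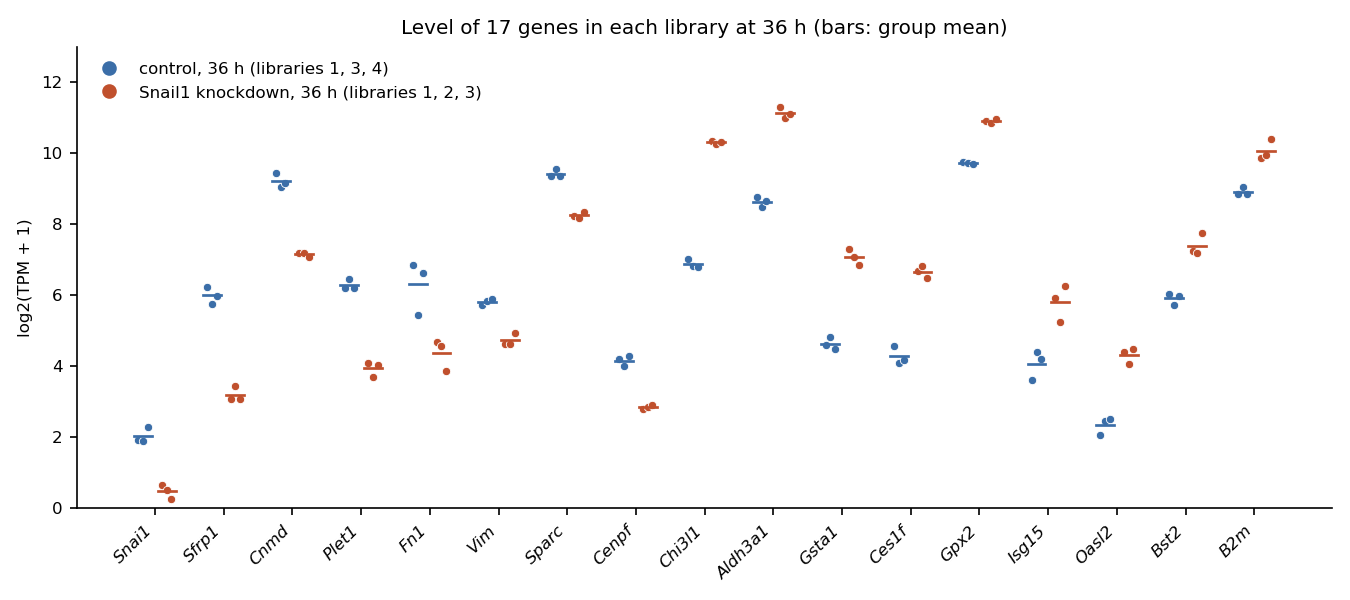
Level of 17 genes in each of the 6 libraries at 36 h, on the log2(TPM + 1) scale; points are libraries, from left to right 1, 3 and 4 in control and 1, 2 and 3 in the knockdown, and bars are group means. For Snai1 the highest knockdown library (0.58 TPM) lies below the lowest control library (2.69 TPM), and for Chi3l1 the lowest knockdown library (1225 TPM) lies above the highest control library (129.8 TPM).

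Across all genes, 2176 of 14426 were called, which is 15.1% of those tested. Of these, 809 were higher in the knockdown (5.61% of genes tested) and 1367 were lower (9.48%), so 37.2% of the calls were rises. A rise of at least 1 on the log2 scale was called for 195 genes and a fall of at least 1 for 417. The 6 libraries separated by group, with no overlap, in 2131 genes that were higher in the knockdown (14.8%) and in 3178 that were lower (22.0%). The median of all genes was -0.09. With median-of-ratios scaling that median became 0.01, and 1192 genes were higher and 1248 lower (48.9% rises), of which 1852 were shared with the unscaled calls in the same direction. Leaving out 1 library moved the number of called genes to 447 without control library 4 and to 3284 without control library 3. It was 1110 without control library 1, and 778, 821 and 1172 without knockdown libraries 1, 2 and 3. In a fit of all 12 libraries, where the spread at 0 h enters the error, 365 genes were called, all of them among the 2176. Of the 0 h libraries, knockdown library 2 moved that count the most, and its inclusion lowers it. This library differs from the other 2 of its group in the 2 genes given here (Krt14 at 2206 TPM against 7662 and 7621 TPM, Epcam at 214 against 769 and 833 TPM). How far this library stands apart over all genes was not measured. Without it the fit called 2683 genes, 2042 of them among the 2176, and leaving out another 0 h library gave 133 to 545. Of the 132 called genes that the rule for naming picks out, 76 kept the call without each library in turn and 52 kept it in the fit of 12, or 128 in the fit without knockdown 0 h library 2. Losses in the fit of 12 given below include that library.

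**Figure D2:**
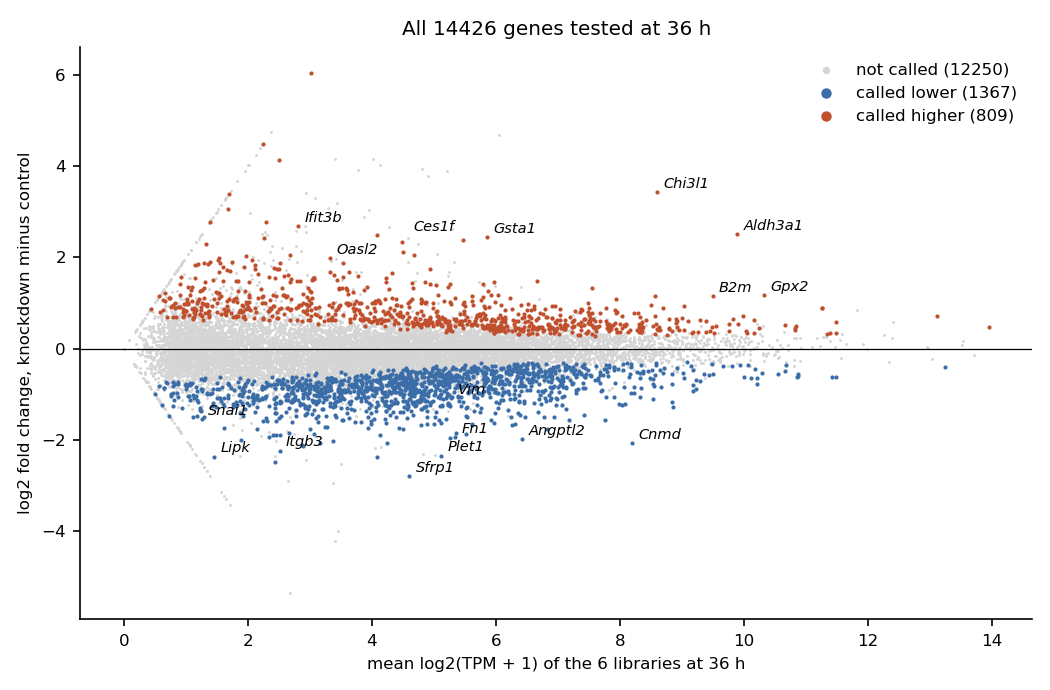
Log2 fold change at 36 h (knockdown minus control) against the mean log2(TPM + 1) of the 6 libraries, 1 point for each of the 14426 genes tested. Red points are the 809 genes called higher and blue points the 1367 called lower; Chi3l1 and Aldh3a1 stand apart at high levels among the rises, and Sfrp1 and Cnmd among the falls.

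The calls differed with gene length. Genes called higher had a median length of 1561 bases and genes called lower 2680 bases, against 2442.5 for all tested. Split by length into 3 equal parts, the shortest genes (up to 1708 bases) were called higher in 9.65% and lower in 6.53% of cases, and the longest genes (over 3302 bases) in 1.87% and 10.3%. Libraries differed along the same line. The longest genes had a median distance from the mean of the 6 libraries of 0.34, -0.19 and 0.22 in control libraries 1, 3 and 4 and of -0.12, -0.02 and -0.21 in knockdown libraries 1, 2 and 3, so control library 3 lay with the knockdown libraries there. The gene groups below differ in length too. Median lengths were 5778 bases for collagen and basement membrane genes, 5292.5 for integrins and 4384 for adherens junctions and desmosomes. They were 1686 for MHC class I, 1924 for detoxification and 2497 for interferon-stimulated genes. Acute-phase secreted proteins, with more falls than rises, had 876. The shares over all genes set beside the groups are not adjusted for length. The part of gene length in the results below was not tested.

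**Figure D3:**
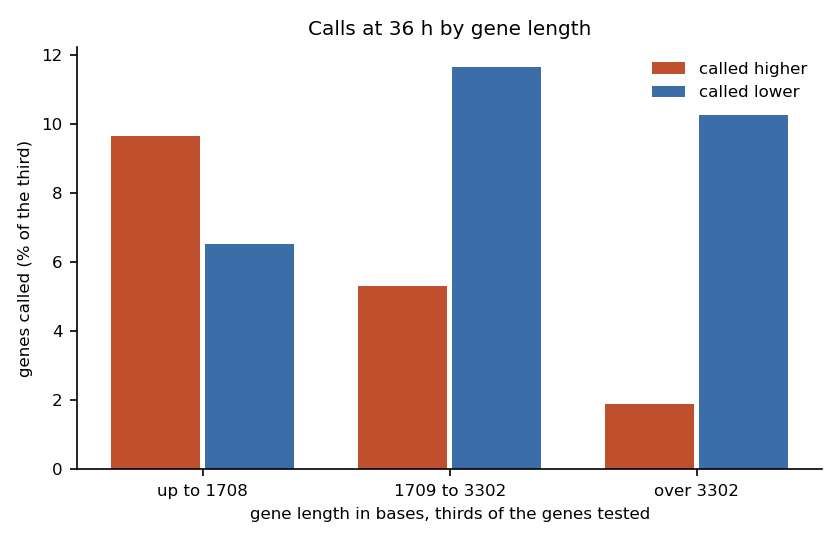
Share of genes called higher (red) and lower (blue) in the knockdown at 36 h, in percent of the genes in each of 3 equal parts by length. The share of rises is 9.65% among the shortest genes and 1.87% among the longest.

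The gene with the largest rise by log2 fold change among those named was Chi3l1 (ENSMUSG00000064246), a secreted chitinase-like protein of inflamed epithelium. It stood at 129.8, 114 and 110.0 TPM in control and at 1316, 1225 and 1269 TPM in the knockdown. The knockdown mean was 10.8 times that of control (log2 fold change 3.42, SE 0.0863, adjusted p = 3.2e-05), and it was among the 11 named genes that kept their call in every alternative tried. Aldh3a1 (ENSMUSG00000019102), an aldehyde dehydrogenase, stood at 433, 358 and 406 TPM against 2534, 2058 and 2217 TPM, 5.69 times control (log2 fold change 2.5, SE 0.109, adjusted p = 0.000543). AW011738, a gene without a descriptive name, stood at 5.18, 6.24 and 7.16 TPM against 38.4, 32 and 48.1 TPM (log2 fold change 2.48). None of the 3 genes had overlapping groups. Triqk, a small membrane protein, rose from 0.933 ± 0.204 to 6.92 ± 0.444 TPM (log2 fold change 2.04) and the nuclear body protein Sp100 from 0.743 ± 0.259 to 5.56 ± 1.28 TPM (1.9). Ifit3b (2.69), Stfa2 (2.12) and the histone gene H2ac18 (2.05) rose too, but they have near copies in the genome between which reads may be split, so their levels are uncertain. Ifit3b lost its call without control library 1 (adjusted p = 0.0776), control library 4 (adjusted p = 0.101), knockdown library 1 (adjusted p = 0.0838) and knockdown library 3 (adjusted p = 0.0832), and H2ac18 lost its call without knockdown library 1 (adjusted p = 0.0511). Snora65, a small nucleolar RNA gene of 130 bases, was listed at 0 in all control libraries and at 4.82, 5.22 and 7.71 TPM in the knockdown, and a gene that short is poorly measured by this kind of library. In the fit of 12 Ifit3b (0.128) and Snora65 (0.121) lost their calls.

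Sfrp1 (ENSMUSG00000031548), a secreted inhibitor of Wnt signaling, had the largest fall by log2 fold change among the genes named. It stood at 74.4, 53.5 and 62.6 TPM in control and at 7.45, 9.97 and 7.47 TPM in the knockdown. The control mean was 7.66 times that of the knockdown (log2 fold change -2.79, SE 0.173, adjusted p = 0.0016). Cnmd (ENSMUSG00000022025), chondromodulin, a cartilage glycoprotein that restrains vessel growth, stood at 705, 526 and 574 TPM against 145, 146 and 135 TPM (log2 fold change -2.06, SE 0.118, adjusted p = 0.00143). Plet1 (ENSMUSG00000032068), a surface protein of epithelial progenitors, stood at 72.9, 87.4 and 72.8 TPM against 16.1, 12.1 and 15.3 TPM (log2 fold change -2.35, SE 0.144, adjusted p = 0.0016). For each of the 3 the knockdown libraries lay well below every control library. Lipk, an epidermal lipase, had the largest ratio of the falls named here, with 5.28 ± 0.545 TPM in control against 0.217 ± 0.103 TPM in the knockdown (log2 fold change -2.37). The collagen Col8a1 (-2.11), the matrix protein Adamtsl4 (-2.08), the sialyltransferase St6gal1 (-2.02) and the acyl-CoA synthetase Acsf2 (-2.0) fell and kept their calls without each library. The collagen crosslinking enzyme Loxl4 (-2.38) and the chloride channel Ano1 (-2.07) fell as well, with control library 3 nearest the knockdown in both: Loxl4 stood at 52.9, 20 and 49.5 TPM and Ano1 at 53.1, 23 and 44.2 TPM in control libraries 1, 3 and 4. Loxl4 lost its call without control library 4 (adjusted p = 0.0659) and knockdown library 2 (adjusted p = 0.0523), and Ano1 lost its call without control library 4 (adjusted p = 0.0659). In the fit of 12 Loxl4 had an adjusted p of 0.0525.

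Of the transcription factors and splicing regulators that set epithelial or mesenchymal state, 4 of 12 tested were called lower and none higher, against 15.1% of all genes called. Snai1, the targeted gene, is 1 of the 4, and its fall follows from the design. The others were Snai2, the relative of Snail1 also called Slug, and the epithelial regulators Ovol1 and Esrp1. Snai2 stood at 149.9, 137 and 134 TPM in control and at 92.8, 95.4 and 106 TPM in the knockdown (log2 fold change -0.51, SE 0.0919, adjusted p = 0.0157). Its groups did not overlap, yet its call was lost with median-of-ratios scaling (adjusted p = 0.0509) and in the fit of 12 (0.571). Ovol1, a repressor of the mesenchymal program, went from 21.3 ± 2.9 to 12.9 ± 1.65 TPM and Esrp1, which sets epithelial splicing, from 71.7 ± 8.54 to 50.9 ± 1.42 TPM. Calls were lost for Snai2 without control library 4 or knockdown library 1 or 2 (0.0636 to 0.0651), Ovol1 without control library 1 or 4 or knockdown library 1 or 2 or 3 (0.0733 to 0.107) and Esrp1 without control library 1 or 4 or knockdown library 1 or 2 or 3 (0.0846 to 0.137), and for Ovol1 and Esrp1 in the fit of 12 (0.251 and 0.218). Zeb1 lay below the filter, at 0.47, 0.2 and 0.54 TPM in control against 0.26, 0 and 0.1 TPM in the knockdown, and Zeb2 had 1.07 ± 0.478 against 1.24 ± 0.263 TPM and did not pass (adjusted p = 0.723). The median of the 12 was -0.32, against -0.09 over all genes. The number called lower was 1, Snai1 itself, without control library 4 or knockdown library 1 or 2. It was 2, with Snai1 among them, without control library 1 or knockdown library 3.

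Mesenchymal effector genes had the lowest median of the gene groups examined, -0.95, with 9 of 14 tested members called lower and 1 higher. The background for a fall was 9.48% of all genes. Fn1 (ENSMUSG00000026193), fibronectin, stood at 116, 42.6 and 98 TPM in control and at 24.5, 22.6 and 13.7 TPM in the knockdown, so that control library 3 lay closest to the knockdown (log2 fold change -1.94, SE 0.398, adjusted p = 0.0235). Vim (ENSMUSG00000026728), the intermediate filament protein vimentin, stood at 51.5, 56.6 and 58.5 TPM against 23.9, 23.9 and 29.6 TPM (log2 fold change -1.08, SE 0.123, adjusted p = 0.00471). Sparc (ENSMUSG00000018593), a matrix protein that binds collagen, stood at 656, 748 and 657 TPM against 302, 287 and 327 TPM (log2 fold change -1.17, SE 0.0884, adjusted p = 0.00227). The groups of each of these genes did not overlap. Zyx (zyxin) fell from 66.6 ± 5.24 to 37.1 ± 2.22 TPM and Tgfbi, a matrix protein induced by TGF-beta, from 10 ± 1.97 to 3.3 ± 0.286 TPM. Of the fibrillar collagens, Col3a1 fell from 1.4 ± 0.155 to 0.207 ± 0.0737 TPM and Col1a1 from 8.3 ± 2.45 to 3.2 ± 0.792 TPM, both at low levels in each group. Cdh2 (N-cadherin) had 4.5 ± 1.71 against 3.65 ± 0.997 TPM and did not pass (adjusted p = 0.672). With 1 library left out, calls ended for Fn1 without control library 1 or 4 or knockdown library 1 or 2 or 3 (0.067 to 0.0998), Tgfbi without control library 4 (0.0505) and Col1a1 without control library 1 or 4 or knockdown library 1 or 2 or 3 (0.0821 to 0.135). In the fit of 12, Zyx (0.152) and Col1a1 (0.0761) lost theirs. The number of members called lower was 4 without control library 4 and 5 without knockdown library 1 or 2, and 9 were lower with median-of-ratios scaling as well.

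Cell-cell junction genes did not move as 1 group. Cdh1 (ENSMUSG00000000303), E-cadherin, stood at 374, 162 and 311 TPM in control and at 249, 270.0 and 169 TPM in the knockdown, with overlapping groups and no call (log2 fold change -0.24, SE 0.329, adjusted p = 0.652). Epcam stood at 697, 671 and 669 TPM against 483, 498 and 486 TPM (log2 fold change -0.47, SE 0.0632, adjusted p = 0.00693), without overlap, and lost its call with median-of-ratios scaling (adjusted p = 0.0572) and in the fit of 12 (0.654). F11r (ENSMUSG00000038235), the junctional adhesion molecule JAM-A, fell the most among called tight junction genes, from 165 ± 7.16 to 63.3 ± 9.45 TPM (log2 fold change -1.38, SE 0.125, adjusted p = 0.00271; fit of 12, 0.149). Of 21 adherens junction and desmosome genes 5 were called lower and none higher, against 9.48% and 5.61% of all genes, with a median of -0.50. They include Ctnna1 (alpha-catenin; -1.08), the desmosomal plakin Dsp (-0.62) and afadin, Afdn (-0.50). Of 25 tight junction and polarity genes 3 were lower and 2 higher, near the shares over all genes, with a median of 0.00 that became 0.10 with scaling. Crb3, an apical polarity protein, rose from 24.9 ± 2.18 to 37 ± 1.93 TPM, while Pals1, its binding partner, fell from 11 ± 1.75 to 5.94 ± 0.569 TPM and the claudin Cldn3 from 54.5 ± 2.77 to 38.1 ± 3 TPM. Calls ended for Ctnna1 without control library 1 or 4 or knockdown library 1 or 2 or 3 (0.072 to 0.124), Dsp without control library 4 or knockdown library 2 or 3 (0.0584 to 0.0905), Afdn without control library 4 or knockdown library 1 or 2 or 3 (0.0516 to 0.0735), Crb3 without control library 4 or knockdown library 1 or 2 or 3 (0.0597 to 0.102), Pals1 without control library 1 or 4 or knockdown library 1 or 2 or 3 (0.0609 to 0.129) and Cldn3 without control library 1 or 4 or knockdown library 2 or 3 (0.0643 to 0.0802). The fit of 12 ended those of Ctnna1 (0.137), Dsp (0.193), Afdn (0.178), Crb3 (0.207), Pals1 (0.127) and Cldn3 (0.592), and scaling those of Dsp (0.0558), Afdn (0.0696) and Cldn3 (0.0618). The number of adherens junction and desmosome genes called lower was 1 without control library 4 or knockdown library 2, 2 without knockdown library 1 or 3, 3 without control library 1 and 13 without control library 3, and for tight junctions and polarity it was 1 without control library 1 or 4 or knockdown library 2 or 3 and 7 without control library 3.

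Among keratins, the stress keratin Krt6a and the basal keratin Krt14 rose, and the luminal keratin Krt8 was not called. Krt14 stood at 14422, 12351 and 13389.6 TPM in control and at 20984, 19468 and 15744 TPM in the knockdown (log2 fold change 0.48, SE 0.124, adjusted p = 0.0476), and Krt5, its partner, at 2821 ± 302 against 3207 ± 304 TPM, which did not pass (adjusted p = 0.3). Krt8 had 204 ± 9.91 against 216 ± 37.5 TPM and did not pass (adjusted p = 0.788). Krt6a (ENSMUSG00000058354), a keratin of wounded and migrating epidermis, stood at 399.6, 359 and 382 TPM against 809, 810.4 and 579 TPM (log2 fold change 0.93, SE 0.142, adjusted p = 0.0104). All genes gave 5.61% higher and 9.48% lower. Of 16 stress keratin and cornified envelope genes 4 were higher and 5 lower, among the latter the envelope precursor Sprr1b (-0.60). Of 17 basal genes, Krt14 was called higher and the caveolin Cav1 (-1.21, 384 ± 30.3 to 165 ± 9.92 TPM) and the growth factor binding protein Igfbp5 (-1.21) lower, a count near the 15.1% of all genes called. Of 15 luminal and milk genes, Btn1a1, butyrophilin of the milk fat globule, was higher (6.32 ± 1.35 to 17.5 ± 3.62 TPM) and 4 were lower, among them the luminal factor Elf3 (-1.18), Krt7 (-0.90) and the prolactin receptor Prlr (-0.83). Calls did not hold for Krt14 without control library 1 or 3 or 4 or knockdown library 1 or 2 (0.0769 to 0.157), Krt6a without control library 4 (0.0564), Sprr1b without control library 4 or knockdown library 1 or 2 or 3 (0.0574 to 0.0811), Igfbp5 without control library 1 or 4 or knockdown library 1 or 2 or 3 (0.0922 to 0.155), Btn1a1 without control library 4 (0.0612), Elf3 without control library 1 or 4 or knockdown library 1 or 2 (0.0541 to 0.0889), Krt7 without control library 1 or 4 or knockdown library 1 or 2 or 3 (0.0633 to 0.106) and Prlr without control library 1 or 3 or 4 or knockdown library 1 or 2 (0.0596 to 0.114). With median-of-ratios scaling they were lost for Krt14 (0.128), Sprr1b (0.0759) and Prlr (0.0583), and in the fit of 12 for Krt14 (0.626), Sprr1b (0.143), Igfbp5 (0.0565), Elf3 (0.0837), Krt7 (0.249), Prlr (0.16) and Cav1 (0.148). Without control library 4, no luminal gene was called, 1 basal gene was lower, and 1 stress keratin or envelope gene was higher and 1 lower. No luminal gene was called lower without control library 1 or knockdown library 1 or 2, and 2 were without knockdown library 3. Basal genes called lower became 1 without control library 1 or any knockdown library and 6 without control library 3. Stress and envelope genes called lower became 3 without control library 1, 2 without knockdown library 1 and 1 without knockdown library 2 or 3. Those called higher became 2 without control library 1 or knockdown library 1 or 2.

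Some matrix proteases and matrix genes were lower in the knockdown, and most members of both lists did not pass. Mmp14 (ENSMUSG00000000957), a membrane-bound metalloprotease that activates others at the cell surface, stood at 143, 96.2 and 114 TPM in control and at 46.7, 52.8 and 37.2 TPM in the knockdown (log2 fold change -1.35, SE 0.184, adjusted p = 0.00745). Mmp3, stromelysin, had 8.93, 5.2 and 7.69 TPM against 1.34, 0.8 and 2.28 TPM (-1.76), and Plau, the urokinase that starts plasmin activation, 13.9, 15 and 17.9 TPM against 5.96, 7.18 and 7.6 TPM (-1.07). Serpine2, a serpin that inhibits such proteases, fell along with them, from 487 ± 33 to 284 ± 16.8 TPM. The libraries of these 4 genes did not overlap between groups. In all, 8 of 25 proteases and inhibitors were called lower and none higher (background 9.48% and 5.61%), with a median of -0.50. Of 19 collagen and basement membrane genes 5 were lower and none higher, with a median of -0.75. The collagen VI chains Col6a1 (491, 246 and 420.1 TPM in control against 150.3, 134 and 95.4 TPM in the knockdown) and Col6a2 (-1.39) were lower together, as was the anchoring fibril collagen Col7a1 (-0.80). No call remained for Mmp3 without control library 4 or knockdown library 1 (0.0547 to 0.0643), Plau without control library 4 (0.06), Col6a1 without control library 4 or knockdown library 1 or 2 or 3 (0.0502 to 0.0779), Col6a2 without control library 4 or knockdown library 1 (0.0506 to 0.0675) and Col7a1 without control library 1 or 4 or knockdown library 1 or 2 (0.0726 to 0.135). The fit of 12 ended those of Mmp14 (0.0855), Mmp3 (0.0999), Plau (0.0595), Serpine2 (0.545), Col6a1 (0.0714), Col6a2 (0.0544) and Col7a1 (0.135), and scaling that of Col7a1 (0.0527). The number of proteases and inhibitors called lower was 2 without control library 4, 4 without knockdown library 1 and 5 without control library 1 or knockdown library 2, and of collagen and basement membrane genes 1 without control library 4 or knockdown library 1, 2 without knockdown library 2, 3 without control library 1 or knockdown library 3 and 13 without control library 3.

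Integrins, the receptors that tie cells to matrix, and the proteins that link them to actin were lower in part. Itgb3 (ENSMUSG00000020689), the beta3 subunit that pairs with alphaV, stood at 16.5, 6.19 and 14.1 TPM in control and at 1.39, 2.27 and 1.33 TPM in the knockdown (log2 fold change -2.24, SE 0.358, adjusted p = 0.0115). Of 12 integrin genes 3 were called lower and none higher, against 9.48% and 5.61% of all genes, with a median of -0.79; the others were Itga8 (-1.52) and Itgb8 (-0.82). Tpm1, a tropomyosin of stress fibers, stood at 188, 168 and 189 TPM against 84.5, 92.4 and 78.4 TPM (log2 fold change -1.09, SE 0.0974, adjusted p = 0.00271). Lims1 (PINCH, which joins integrin-linked kinase to the adhesion; 78 ± 3.35 to 43.8 ± 1.61 TPM) and Rnd3, which counteracts RhoA signaling (18.5 ± 0.978 to 8.32 ± 1.55 TPM), fell as well. Against the same background, 12 of 30 focal adhesion and actin genes were lower and none higher, with a median of -0.50. Control library 3 lay lowest of the control group over these members, at a median distance of -0.60 for integrins and -0.33 for focal adhesion genes from the control mean, and both lists hold long genes (median length 5292.5 and 3140.0 bases). Calls were lost for Itgb3 without control library 4 or knockdown library 1 (0.0541 to 0.0628), Itga8 without control library 1 or 4 or knockdown library 1 or 2 or 3 (0.0834 to 0.158), Itgb8 without control library 1 or 4 or knockdown library 1 or 2 or 3 (0.0928 to 0.169) and Rnd3 without control library 4 (0.0606), and in the fit of 12 for Itga8 (0.0862), Itgb8 (0.209), Rnd3 (0.115), Tpm1 (0.0552) and Lims1 (0.09). The number of integrins called lower was 0 without control library 4 or knockdown library 1, 1 without control library 1 or knockdown library 2 or 3 and 9 without control library 3. For focal adhesion and actin genes it was 3 without control library 4, 4 without knockdown library 1 or 2, 7 without control library 1 and 20 without control library 3.

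**Figure D4:**
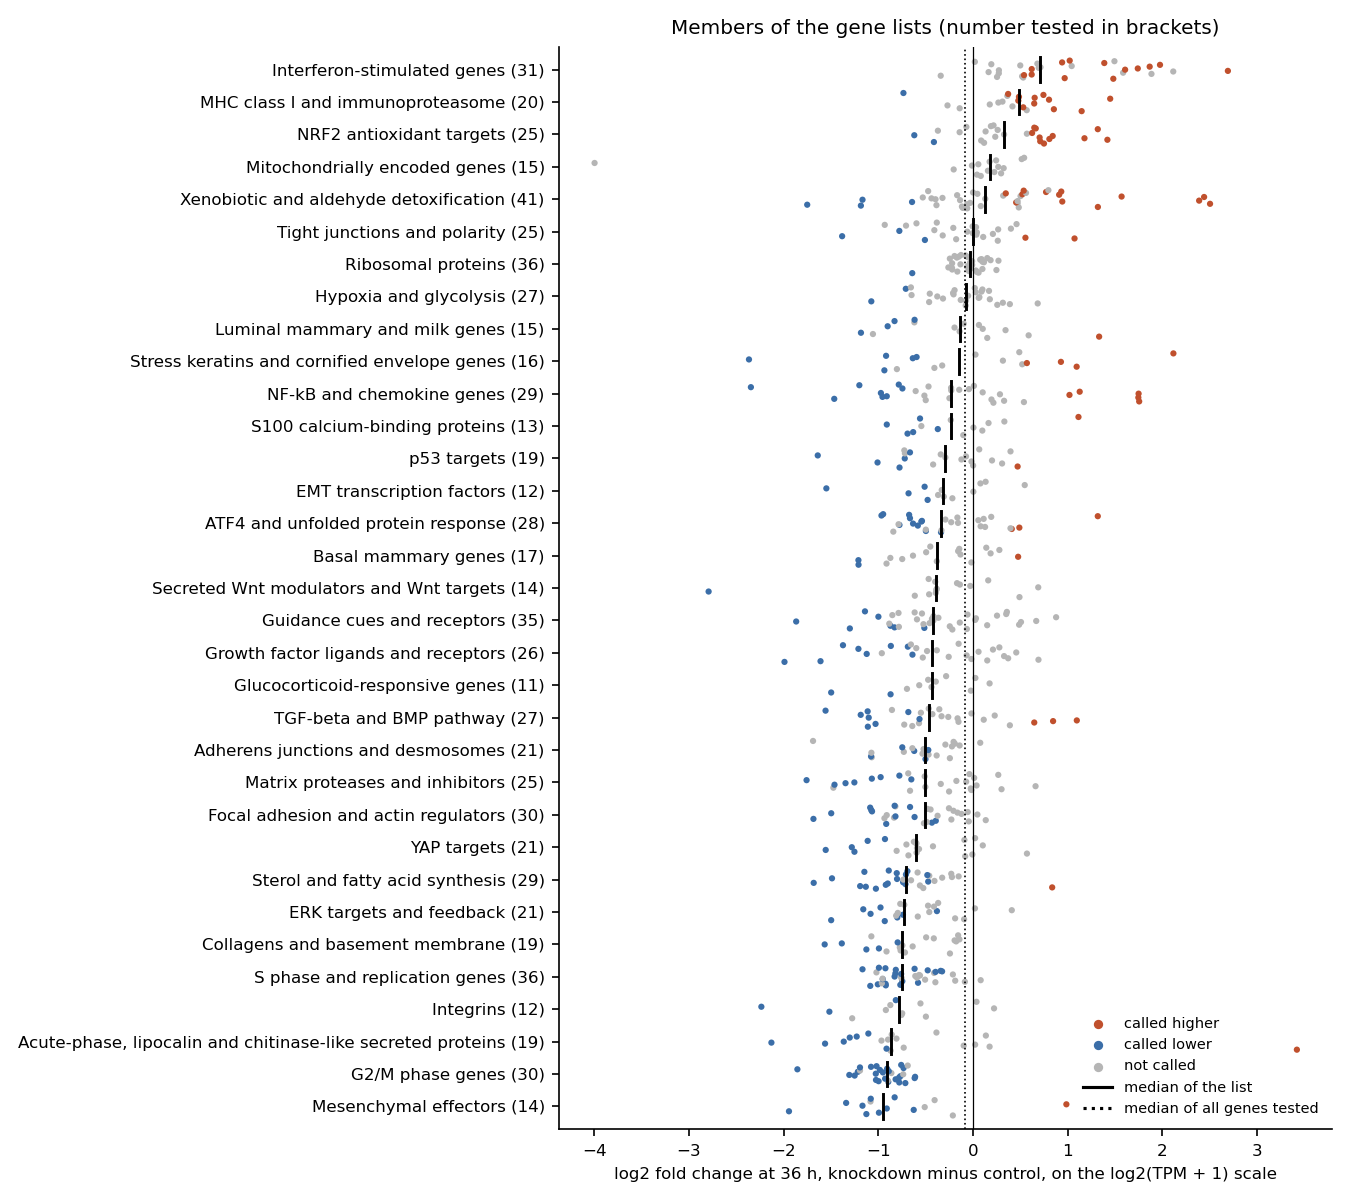
Log2 fold change at 36 h of every tested member of 33 gene groups, 1 point a gene, ordered by the median of the group (black bar). Interferon-stimulated genes (median 0.71) and MHC class I genes (0.48) stand at the top and mesenchymal effectors (-0.95) and G2/M phase genes (-0.90) at the bottom; the dotted line is the median of all genes (-0.09).

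Ligands and receptors that feed or guide migrating cells were lower in part. Of 26 growth factor ligands and receptors 8 were lower and none higher, against 9.48% and 5.61% of all genes, with a median of -0.43. Angptl2 (ENSMUSG00000004105), a secreted angiopoietin-like protein, stood at 212, 137 and 171 TPM in control and at 43.3, 47.1 and 36.5 TPM in the knockdown (log2 fold change -1.99, SE 0.178, adjusted p = 0.00271). Angptl4, which inhibits lipoprotein lipase, stood at 25.5, 22.3 and 23.5 TPM against 7.37, 7.36 and 6.59 TPM (-1.61). Pdgfa, a platelet-derived growth factor chain, fell from 70.1 ± 1.89 to 43.2 ± 2.89 TPM, and Fgfbp1, which releases FGF from matrix, from 158 ± 4.18 to 101 ± 10.5 TPM. Against the same shares, 7 of 35 guidance cues and receptors were lower and none higher (median -0.42): Efna3, an ephrin ligand, went from 71.5 ± 8.53 to 28.3 ± 0.949 TPM, the netrin receptor Unc5b from 7.55 ± 0.272 to 2.88 ± 0.34 TPM, the semaphorin co-receptor Nrp2 from 15.9 ± 6.18 to 3.43 ± 0.601 TPM, and Sema3b had -1.0. Sfrp1 was the only 1 of 14 Wnt modulators and targets called, and 3 were lower without control library 3. The calls were lost for Pdgfa without control library 4 (0.0509), Fgfbp1 without control library 4 (0.06), Nrp2 without control library 4 or knockdown library 1 (0.0548 to 0.0659) and Sema3b without control library 1 or 4 or knockdown library 1 or 2 or 3 (0.0516 to 0.123), and in the fit of 12 for Pdgfa (0.0544), Fgfbp1 (0.0974), Efna3 (0.0535) and Sema3b (0.151). The number of growth factor genes called lower was 2 without control library 4 and 4 without knockdown library 1, and of guidance genes 2 without control library 4 or knockdown library 1, 3 without control library 1 or knockdown library 2 or 3 and 18 without control library 3.

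Targets and feedback genes of ERK signaling, which growth factors switch on, were lower in 8 of 21 members and higher in none (all genes: 9.48% and 5.61%), with a median of -0.73. Dusp1 (ENSMUSG00000024190), a phosphatase that turns off MAP kinases, stood at 16.9, 20.4 and 14.1 TPM in control and at 4.39, 6.53 and 5.32 TPM in the knockdown (log2 fold change -1.5, SE 0.199, adjusted p = 0.00681). The transcription factor Myc fell from 82.5 ± 9.04 to 41.4 ± 4.34 TPM, cyclin D1 (Ccnd1) from 48.8 ± 3.08 to 25.1 ± 2.29 TPM and the ERK phosphatase Dusp6 from 114 ± 20.5 to 64.7 ± 4.07 TPM. YAP targets were lower in 5 of 21 members against the same 9.48% (median -0.60), among them the matricellular protein Ccn1 (18.7 ± 0.892 to 5.76 ± 1.32 TPM), the Arf regulator Asap1 (-1.25) and the YAP partner Wwtr1, also called TAZ (-0.93). With 1 library left out, calls ended for Dusp6 without control library 4 or knockdown library 1 or 2 (0.0562 to 0.0615), Asap1 without control library 4 (0.0576) and Wwtr1 without control library 1 or 4 or knockdown library 1 or 2 or 3 (0.0524 to 0.087), and in the fit of 12 for Myc (0.307), Ccnd1 (0.0571), Dusp6 (0.338), Ccn1 (0.0944) and Wwtr1 (0.125). The number of ERK genes called lower was 3 without control library 4 or knockdown library 1 or 2 and 5 without control library 1 or knockdown library 3, and of YAP targets 2 without control library 4, 3 without control library 1 or knockdown library 1 or 2 and 9 without control library 3.

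The TGF-beta and BMP family moved in both directions, with 8 of 27 members lower and 3 higher, against 9.48% and 5.61% of all genes (median -0.47). The ligands Tgfb3 (70.7, 42.8 and 60.8 TPM in control against 16.9, 22.3 and 17.2 TPM in the knockdown, log2 fold change -1.56, SE 0.208, adjusted p = 0.00691) and Tgfb2 (-1.11) and the decoy receptor Bambi (-1.11) fell. Id2 (ENSMUSG00000020644), which blocks basic helix-loop-helix factors and is a target of BMP signaling, stood at 152, 179 and 169 TPM against 323, 351 and 400.2 TPM and rose (log2 fold change 1.1, SE 0.108, adjusted p = 0.00337). Id1, its relative, stood at 182, 179 and 178 TPM against 352, 334 and 288 TPM and rose too (log2 fold change 0.85, SE 0.0925, adjusted p = 0.00433). Both kept their calls without each library and in the fit of 12. Tgfb2 lost its call without control library 4 (adjusted p = 0.0611), Bambi lost its call without control library 4 (adjusted p = 0.0564), and in the fit of 12 Tgfb3 (0.0542) and Tgfb2 (0.0689) were not called. The number of members called lower was 1 without control library 4, 3 without knockdown library 1, 4 without knockdown library 2, 5 without control library 1 or knockdown library 3 and 14 without control library 3, and of those called higher 2 without control library 4 or knockdown library 1 or 2.

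Genes of the cell cycle were lower as a group. Of 30 G2/M phase genes, which drive mitosis, 25 were called lower and none higher (background 9.48% and 5.61%), and all 30 had negative values, with a median of -0.90 that became -0.80 with scaling. Ccna2 (ENSMUSG00000027715), cyclin A2, stood at 169.5, 149.8 and 176 TPM in control and at 80.6, 77 and 84 TPM in the knockdown (log2 fold change -1.02, SE 0.0932, adjusted p = 0.00278). Cenpf, a kinetochore protein, stood at 17.5, 15 and 18.4 TPM against 5.94, 6.26 and 6.54 TPM (log2 fold change -1.31, SE 0.142, adjusted p = 0.00429). Birc5 (survivin) fell from 814 ± 66.8 to 437 ± 39.3 TPM and cyclin B2 (Ccnb2) from 100.2 ± 10.1 to 52 ± 1.15 TPM. The groups of these 4 genes did not overlap. Of 36 S phase and replication genes 20 were lower and none higher, with a median of -0.75. Rrm2, which makes deoxynucleotides, stood at 139.6, 112 and 121 TPM against 57.5, 54.6 and 51.2 TPM (log2 fold change -1.17, SE 0.11, adjusted p = 0.00287), and Tyms (thymidylate synthase; -0.93), Ccne2 (cyclin E2; -0.92) and Pcna, the replication clamp (-0.76), fell beside it. Each of these 8 genes kept its call without every single library, while Birc5 (0.15), Ccnb2 (0.236), Rrm2 (0.391), Tyms (0.158), Ccne2 (0.387) and Pcna (0.0818) lost it in the fit of 12. The number of G2/M genes called lower was 13 without control library 4. For S phase genes it was 6 without control library 4, 8 without knockdown library 1, 10 without control library 1 or knockdown library 2 or 3 and 31 without control library 3.

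Of 19 p53 targets 5 were lower and 1 higher, against 9.48% and 5.61% of all genes. Cdkn1a (ENSMUSG00000023067), the cell cycle inhibitor p21, stood at 144, 150.1 and 149.9 TPM in control and at 75.5, 74 and 69.5 TPM in the knockdown (log2 fold change -1.01, SE 0.0785, adjusted p = 0.00227), so an inhibitor fell together with the cycle genes. Plk2 fell from 112 ± 28.8 to 34.5 ± 4.51 TPM and Mdm2, the ligase that degrades p53, from 49 ± 8.14 to 29.3 ± 4.22 TPM, while Bax, an apoptosis gene, rose from 164 ± 11.9 to 228 ± 11.8 TPM. Calls ended for Mdm2 without control library 1 or 4 or knockdown library 1 or 2 or 3 (0.0582 to 0.126) and Bax without control library 4 or knockdown library 1 or 2 (0.0676 to 0.0849), and in the fit of 12 for Plk2 (0.138), Mdm2 (0.484) and Bax (0.428). The number of p53 targets called lower was 2 without control library 1 or 4 or knockdown library 1 or 2, 3 without knockdown library 3 and 8 without control library 3.

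Lipid synthesis and the unfolded protein response were lower in part. Of 29 sterol and fatty acid synthesis genes 17 were lower and 1 higher, against 9.48% and 5.61% of all genes, with a median of -0.71. Fasn (ENSMUSG00000025153), fatty acid synthase, stood at 112, 66.6 and 87.8 TPM in control and at 30.4, 24.4 and 24.7 TPM in the knockdown (log2 fold change -1.68, SE 0.199, adjusted p = 0.00528). The sterol enzymes Cyp51 (100.3 ± 13 to 45.1 ± 4.38 TPM) and Sqle (122 ± 17.5 to 54.5 ± 4.93 TPM) and Srebf2, the factor that controls them (68.8 ± 6.95 to 36.6 ± 1.79 TPM), fell. Against the same shares, 11 of 28 ATF4 and unfolded protein response genes were lower and 3 higher (median -0.34). Xbp1 (ENSMUSG00000020484), a factor that expands the secretory pathway, stood at 168, 160.4 and 165 TPM against 81.6, 81.4 and 91.3 TPM (log2 fold change -0.95, SE 0.0829, adjusted p = 0.00271), the secreted chaperone Manf fell from 175 ± 6.93 to 113 ± 5.77 TPM, and Atf4 had 123 ± 6.98 against 86.5 ± 3.36 TPM (-0.50). Atf4 lost its call without control library 4 (adjusted p = 0.0743), knockdown library 1 (adjusted p = 0.0559) and knockdown library 2 (adjusted p = 0.0542), and with scaling its adjusted p was 0.0729. In the fit of 12 the calls of Cyp51 (0.214), Sqle (0.124), Srebf2 (0.0639), Xbp1 (0.43), Manf (0.181) and Atf4 (0.303) were lost. The number of lipid synthesis genes called lower was 4 without control library 4, 7 without control library 1 or knockdown library 2, 8 without knockdown library 3 and 9 without knockdown library 1, and of stress response genes 2 without control library 4 or knockdown library 1, 4 without knockdown library 2 and 5 without control library 1 or knockdown library 3. The stress response genes called higher became 1 without control library 4 or knockdown library 1 or 2.

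Detoxifying enzymes and antioxidant genes were among the groups with more rises than falls. Of 41 xenobiotic and aldehyde detoxification genes 13 were higher and 4 lower, and of 25 targets of NRF2, the factor that answers oxidants, 11 were higher and 2 lower, against 5.61% and 9.48% of all genes. Besides Aldh3a1, Gsta1 (ENSMUSG00000074183), a glutathione transferase, stood at 23.3, 27.6 and 21.4 TPM in control and at 159, 134 and 114 TPM in the knockdown (log2 fold change 2.44, SE 0.153, adjusted p = 0.0016). Gsta2, its close relative, went from 5.73 ± 0.416 to 19 ± 0.157 TPM, and reads of the pair may be split between the copies. Ces1f (ENSMUSG00000031725), a carboxylesterase, stood at 22.6, 16 and 17.2 TPM against 103, 112 and 88.5 TPM (log2 fold change 2.39, SE 0.159, adjusted p = 0.00209). No library of either group overlapped the other in these genes. Gpx2 (ENSMUSG00000042808), a glutathione peroxidase of epithelia, stood at 864, 855 and 829 TPM against 1916, 1866 and 1989 TPM (log2 fold change 1.18, SE 0.0642, adjusted p = 0.0014). Gclm, which controls glutathione synthesis, stood at 131, 147 and 129 TPM against 239.9, 227 and 245 TPM (log2 fold change 0.81, SE 0.0844, adjusted p = 0.00388). The cystine transporter Slc7a11 rose from 0.56 ± 0.14 to 2.88 ± 0.166 TPM, the biliverdin reductase Blvrb from 61.9 ± 2.09 to 105 ± 5.99 TPM and the lipid peroxidase Gpx4 from 797 ± 70.9 to 1297 ± 54.9 TPM. All of these kept their calls without each library, and in the fit of 12 Gclm (0.0741), Slc7a11 (0.0574) and Gpx4 (0.163) lost theirs. The detoxification genes called higher became 6 without control library 4, 7 without knockdown library 1 and 8 without knockdown library 2, while those of NRF2 stayed within 8 to 12. Aldh1a7 and Aldh1a1, 2 aldehyde dehydrogenases chosen here after their values were seen, fell (-1.75 and -1.18) while Aldh3a1 rose. Aldh1a1 lost its call without knockdown library 2 (adjusted p = 0.053).

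NRF2 binds the antioxidant response element, searched here as TGACNNNGC on both strands. Of 22 NRF2 targets with a promoter entry 8 held it, 3 of the 9 called higher among them, against 16.9% of all 9790 promoters. The list was written from general knowledge of NRF2 targets. Those called higher held the element no more often (33.3%) than the list with an entry (36.4%). Of 30 detoxification genes with an entry 3 held it, 2 of the 10 called higher among them. The element was present in 19.6% of all 566 genes called higher and in 17.1% of the 1026 called lower. A stretch upstream of the start of Gclm (RefSeq, GRCm38.p6, chr3:122245367-122245486, plus strand) is shown with the match in capitals, on the opposite strand. Gclm is 1 of the 3 NRF2 targets called higher that held it.
Gclm promoter: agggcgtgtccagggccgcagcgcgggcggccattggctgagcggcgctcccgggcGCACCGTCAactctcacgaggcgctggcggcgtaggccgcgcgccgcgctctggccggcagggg

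Interferon-stimulated genes and the MHC class I pathway stood highest of the groups. Of 31 interferon-stimulated genes 13 were higher and none lower (background 5.61% and 9.48%), with a median of 0.71 that was 0.78 with scaling. Bst2 (ENSMUSG00000046718), tetherin, stood at 64.6, 52.3 and 61.7 TPM in control and at 150.2, 145 and 216 TPM in the knockdown (log2 fold change 1.48, SE 0.174, adjusted p = 0.00507). Oasl2, an antiviral synthetase-like protein, stood at 3.19, 4.48 and 4.67 TPM against 20, 15.8 and 21.5 TPM (log2 fold change 1.98, SE 0.192, adjusted p = 0.00314). Irf7, a factor that amplifies interferon output, stood at 4.73, 5.06 and 5.25 TPM against 18, 12.8 and 22.4 TPM (log2 fold change 1.61, SE 0.214, adjusted p = 0.00681), with knockdown library 2 the lowest of its group. Isg15, a ubiquitin-like modifier taken up here after its values were seen because its promoter is shown, stood at 11.2, 20.3 and 17.4 TPM against 59.8, 37.2 and 76 TPM (log2 fold change 1.74, SE 0.307, adjusted p = 0.0147), and lost its call without control library 4 (0.0647) or knockdown library 1 (0.0668) and in the fit of 12 (0.178). Over the whole list the knockdown libraries 1, 2 and 3 lay at medians of 0.96, 0.52 and 1.01 above the control mean. The number called higher was 4 without control library 4, 6 without knockdown library 1 and 8 without knockdown library 3.

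Of 20 MHC class I and immunoproteasome genes, which present peptides to T cells, 11 were higher and 1 lower, against 5.61% and 9.48% of all genes. Their median was 0.48. B2m (ENSMUSG00000060802), the light chain of the class I molecule, stood at 461, 531 and 460.4 TPM in control and at 927, 983 and 1351 TPM in the knockdown (log2 fold change 1.15, SE 0.152, adjusted p = 0.00681). Psme1, a proteasome activator subunit, stood at 136, 139.7 and 138 TPM against 211, 215 and 224 TPM (log2 fold change 0.65, SE 0.0703, adjusted p = 0.00424). Both had separate groups, and both kept the call without each library. The heavy chain H2-D1 rose from 66.5 ± 8.58 to 121 ± 14.9 TPM and the nonclassical H2-T22 from 20.9 ± 1.69 to 33.2 ± 0.308 TPM. H2-D1 lost its call without control library 4 (adjusted p = 0.06), and H2-T22 lost its call without control library 4 (adjusted p = 0.0696), knockdown library 1 (adjusted p = 0.0548) and knockdown library 2 (adjusted p = 0.0562). Heavy chain genes are near copies of each other, so the split of reads among them is uncertain. In the fit of 12, H2-D1 (0.262), H2-T22 (0.0999), Oasl2 (0.11) and Irf7 (0.214) were not called. The number of class I pathway genes called higher was 2 without control library 4, 4 without knockdown library 1 or 2, 5 without knockdown library 3 and 7 without control library 1.

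The interferon-stimulated response element, searched as GAAANNGAAA on both strands, was present in 13 of 22 interferon-stimulated genes with a promoter entry and in 5 of 17 class I pathway genes, against 3.59% of all 9790 promoters. Among interferon-stimulated genes called higher 5 of 10 held it. The stretches of 3 genes that rose are shown with the matches in capitals. Isg15 (chr4:156200820-156200939, minus strand) has 3 matches that overlap in 1 run, Ifit3b (chr19:34607748-34607867, plus strand) has 2 on the opposite strand, and B2m (chr2:122147493-122147612, plus strand) has 1. Coordinates are RefSeq's on GRCm38.p6.
Isg15 promoter: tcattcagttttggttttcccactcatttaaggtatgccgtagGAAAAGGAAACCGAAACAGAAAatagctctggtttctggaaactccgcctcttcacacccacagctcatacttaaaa
Ifit3b promoter: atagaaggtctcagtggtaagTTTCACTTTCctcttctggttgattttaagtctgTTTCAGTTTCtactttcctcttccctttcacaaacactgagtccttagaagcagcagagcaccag
B2m promoter: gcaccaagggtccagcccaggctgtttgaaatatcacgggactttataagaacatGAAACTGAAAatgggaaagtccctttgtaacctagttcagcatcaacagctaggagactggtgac
A match is a run of letters, not a measured binding site, and the data hold no binding measurement.

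NF-kB and chemokine genes split, with 5 of 29 higher and 8 lower, against 5.61% and 9.48% of all genes. Cxcl10, an interferon-induced chemokine, stood at 1.53, 0.96 and 1.65 TPM in control and at 9.08, 6.45 and 5.62 TPM in the knockdown (log2 fold change 1.75, SE 0.228, adjusted p = 0.00657). Ccl20, which draws dendritic cells and lymphocytes, stood at 2.31, 2.48 and 1.19 TPM against 9.36, 9.64 and 7.82 TPM (log2 fold change 1.76, SE 0.227, adjusted p = 0.00639). Cx3cl1, a membrane-anchored chemokine at a higher level in control, fell from 140.3 ± 32.2 to 49.4 ± 5.12 TPM (log2 fold change -1.47, SE 0.182, adjusted p = 0.00557). Acute-phase, lipocalin and chitinase-like secreted proteins were lower in 7 of 19 members against the same 9.48%, with Chi3l1 as the 1 rise and a median of -0.87. Orm1, an acute-phase glycoprotein, had 13.1, 17.2 and 13.5 TPM against 1.77, 4.96 and 1.68 TPM (log2 fold change -2.13, SE 0.332, adjusted p = 0.0108). The metal-binding Mt2 fell from 251 ± 42.4 to 83.6 ± 4.71 TPM and the secreted Wfdc18 from 542 ± 17.6 to 252 ± 30.1 TPM. Orm1 lost its call without control library 4 (adjusted p = 0.0562). In the fit of 12 Cxcl10 (0.128) and Cx3cl1 (0.145) lost the call. The number of NF-kB and chemokine genes called higher was 2 without control library 1 or 4 or knockdown library 2, and lower 2 without control library 4, 3 without knockdown library 2 and 4 without control library 1 or knockdown library 1.

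Ribosomal and mitochondrially encoded genes gave few calls, against 5.61% of all genes called higher and 9.48% lower. Of 36 ribosomal protein genes 1 was called (Rpl10, -0.64), with a median of -0.03 that became 0.08 with scaling, and none of 15 mitochondrially encoded genes was, although their share of TPM ran from 2.81% to 5.84% in control and from 2.86% to 6.15% in the knockdown. Of these 15, 12 had positive and 3 negative values, the lowest at -4.00, and 1 had separate groups with the knockdown lower. Of 27 hypoxia and glycolysis genes 2 were lower, near the 9.48% of all genes, and none was higher. The 2 were the oxygen sensor Egln3 (14.3 ± 0.558 to 6.26 ± 0.374 TPM) and the glucose transporter Slc2a1 (42.7 ± 7.77 to 25.4 ± 0.463 TPM). The hypoxia genes called lower became 1 without control library 1 or 4 or knockdown library 1 or 2 or 3 and 5 without control library 3. Of 13 S100 genes 5 were lower and 1 higher, against 9.48% and 5.61% of all genes, and the lower calls became 1 without control library 4 or knockdown library 1 or 2, 2 without knockdown library 3 and 3 without control library 1, and 2 with median-of-ratios scaling. S100a10, the partner of annexin A2, fell from 766 ± 77.1 to 472 ± 20 TPM and S100a4 from 289 ± 44.3 to 153 ± 20.9 TPM. S100g, a calcium-binding protein, had 0.14 ± 0.123 against 1.51 ± 0.589 TPM, levels near the filter of 1 TPM. Calls did not hold for Rpl10 without control library 4 or knockdown library 1 or 2 (0.0649 to 0.087), Slc2a1 without control library 1 or 4 or knockdown library 1 or 2 or 3 (0.0562 to 0.102), S100a4 without control library 4 or knockdown library 1 or 2 (0.0529 to 0.0639) and S100g without control library 1 or 4 or knockdown library 2 or 3 (0.0724 to 0.081), for Rpl10 with scaling (0.0939), and in the fit of 12 for Rpl10 (0.306), Slc2a1 (0.096), S100a10 (0.0519), S100a4 (0.101) and S100g (0.269).

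The same contrast at 0 h rests on 6 other libraries and shares no control with it. Of the 809 genes called higher at 36 h, 595 (73.5%) had a positive value at 0 h, against 27.9% of all genes, and of the 1367 called lower 1322 (96.7%) had a negative one, against 72.1%, with a median over all genes of -0.41 at 0 h. The 0 h groups were separate, with the knockdown higher, in 272 of the 809 (33.6%, against 7.24% of all genes) and, with the knockdown lower, in 1149 of the 1367 (84.1%, against 30.7%). The opposite separation was seen for 9 and 1 of them. Chi3l1 had 2.37 at 0 h and 3.42 at 36 h, Gsta1 2.13 and 2.44, Sfrp1 -3.27 and -2.79, and Cnmd -2.83 and -2.06. Those counts change without knockdown 0 h library 2: 769 of the 809 (95.1%, against 37.3% of all genes) had a positive value and 625 (77.3%, against 16.2%) were separate, with 1351 (98.8%, against 62.5%) and 1215 (88.9%, against 33.2%) of the 1367. Id2 (-0.47 and 1.1) and Krt6a (-0.80 and 0.93) had opposite signs at the 2 times, with and without that library. Ces1f had -0.49 at 0 h with overlapping groups, and 0.07 without knockdown 0 h library 2. With that library included, G2/M phase genes had a median of -2.21 at 0 h and -0.90 at 36 h. S phase genes had -1.39 and -0.75, ERK genes -1.26 and -0.73 and mesenchymal effectors -1.05 and -0.95. Detoxification (-0.37 and 0.13), NRF2 (-0.12 and 0.33) and class I pathway genes (-0.19 and 0.48) were negative at 0 h. Interferon-stimulated genes had 0.58 and 0.71. No difference of such medians was tested. The difference between the effects was tested as an interaction in limma over all 12 libraries. It was called for 0 genes (0% of 14426), with 766 genes at an unadjusted p under 0.05 and a lowest adjusted p of 0.127, shared by several genes, among them Krt6a, Id2 and Fgfbp1 (-2.34 and -0.64). With all 12 libraries the tests therefore did not show, for any gene, that the effect at 36 h differs from that at 0 h. Without knockdown 0 h library 2 there were 11 calls, Id2 and Ces1f among them.

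**Figure D5:**
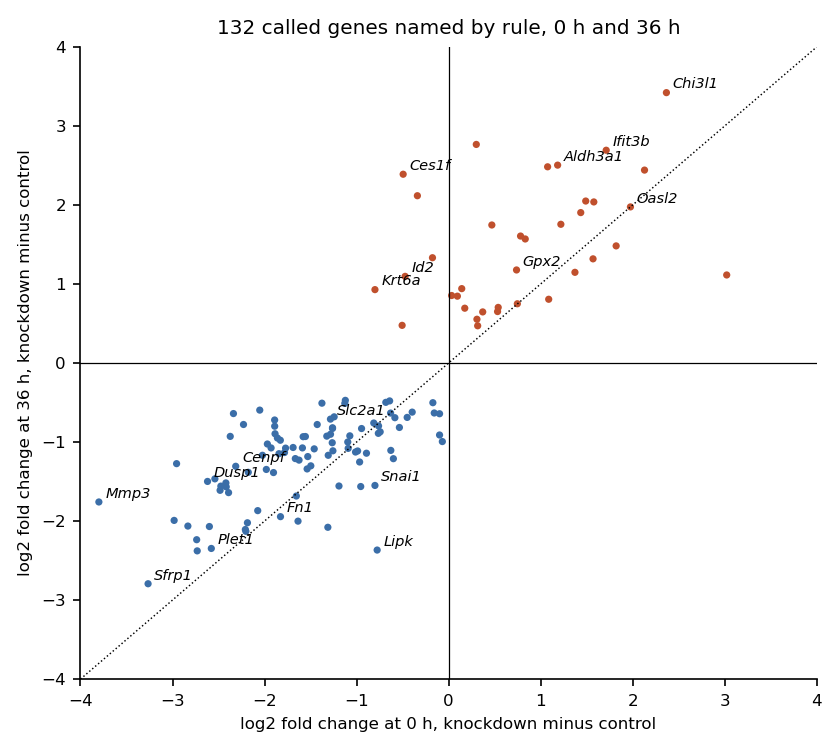
Log2 fold change (knockdown minus control) at 36 h against that at 0 h for the 132 called genes that the naming rule gives, red for higher and blue for lower at 36 h; the dotted line marks equal values. Blue points all lie left of 0 at 0 h, while a few red points, among them Id2 and Krt6a, lie at negative values at 0 h.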

How the data were processed

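RNA of HC11 cells was measured by stranded mRNA sequencing, and sample titles gave the groups. The deposited table holds TPM values made by the authors for 57180 genes per library. Per the submitters' processing notes, the build was GRCm39 and the tools were HISAT2 2.2.1, HTSeq, DESeq2, cutadapt 1.9.1 and FastQC, with no role stated. Whole reads could not be recovered from the TPM, so depth is unknown and models for counts were not used. The authors' mean columns were not used; that of control at 36 h covers libraries 1 and 3 only.

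TPM were transformed as log2(TPM + 1), filtered at 1 TPM in 3 of the 12 libraries and fitted for the 6 libraries at 36 h with limma 3.58.1 (lmFit and eBayes with a variance trend) in R 4.3.3. The interaction of knockdown and time used all 12 libraries. The fits were run on simulated data with known changes, where the condition set was recovery of the mean fold change. The simulated libraries had independent noise of equal spread, with no deviating or pooled library and no length trend. The simulation therefore does not test the calls in these data. The gene lists, the members and the rule for naming genes (Snai1, the 12 largest rises and the 12 largest falls among called genes with at least 5 TPM and separate groups, up to 4 called members of each list with the lowest adjusted p, and fixed markers) were chosen with earlier results of these data known. Promoter windows and coordinates are RefSeq's on GRCm38.p6, another build than the table's, matched by symbol for 9790 of 14426 genes (67.9%); the searches for GAAANNGAAA and TGACNNNGC were added after seeing the data. Alternatives were another pseudocount, filters, scalings and variance models, a fit of all 12 libraries, the replicate number as a block and leaving out each library. Array weights and leaving out each 0 h library were added after seeing the data. Control and knockdown share only the replicate numbers 1 and 3. Deviations from the group means correlated across genes at 0.04 and 0.13 for these, against -0.13 to 0.08 for libraries of unlike number. The value for number 3 was the highest of all pairs. These values do not decide whether equal numbers mark paired samples, because deviations within a group are tied to each other. The main fit did not treat the samples as paired, and the fit with the replicate number as a block is given below.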

Additional observations from a re-analysis of the deposited data

How the results depend on the processing

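The number of called genes (2176, 809 higher and 1367 lower) stayed within 1.5 times of itself with a pseudocount of 0.1, a filter of 5 TPM, removal of mitochondrial genes, a robust variance and no variance trend. Median-of-ratios scaling kept it too (2440), but moved the split to 1192 higher and 1248 lower. Quantile normalization gave 1297 higher. With no filter 1190 genes were called, 429 higher and 761 lower, over 30551 genes tested. The fit of all 12 libraries gave 365, with 129 higher and 236 lower, and 2683 without knockdown 0 h library 2 (chosen after seeing the data). With 1 library left out the calls ran from 447 to 3284, the rises from 154 to 842 and the falls from 293 to 2442, fewest without control library 4 and most without control library 3; the cause was not tested. Array weights, chosen after seeing the data, gave control library 4 a weight of 26.7 against 0.226 to 1.08 for the others and 7356 calls, 2596 higher and 4760 lower. The replicate number as a block, which pairs only libraries 1 and 3, gave 51 calls, 26 higher and 25 lower, of which 27 were shared with the main calls, and Snai1 at -1.44 (adjusted p = 0.0899); of the 132 named calls it ended 119. Snai1 does not reach the filter of 5 TPM, and the 15 other alternatives kept its call, from -2.73 with a pseudocount of 0.1 to -1.42 without control library 4. The difference between the 36 h and 0 h effects was called for 0 genes, for 1 (a predicted gene) with median-of-ratios scaling, and for 0 to 11 with 1 of the 12 libraries left out. No named gene changed direction past the threshold in an alternative. Of 132 named calls, 55 ended without control library 4, 38, 37 and 25 without knockdown libraries 1, 2 and 3, 24 without control library 1 and 3 without control library 3; 12 ended with scaling. Depth is unknown, so low levels carry no counting error, and a gene at 0 is only listed at 0.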

Other observations

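A few genes were listed at 0 throughout 1 group. Listed at 0 in all control libraries and at 1 TPM or more in all knockdown libraries were 5 genes, named here after their values were seen: Dcpp1, a secreted demilune protein, at 25.0, 5.77 and 1.04 TPM in knockdown libraries 1, 2 and 3, Snora65, and the predicted genes Gm9797, Gm56003 and Gm55809, of which the last 2 are 97 and 125 bases long. The converse held for 3 genes, Pramel49 (1.55, 2.29 and 1.55 TPM in control libraries 1, 3 and 4) and the predicted genes Gm2926 and Gm23823. Most of these genes are short or belong to families with near copies, and no fold is given for them.

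Padi4, an enzyme that converts arginine to citrulline in proteins, stood at 17.9, 14.1 and 13.6 TPM in control and at 7.77, 5.19 and 4.41 TPM in the knockdown (log2 fold change -1.27, SE 0.222, adjusted p = 0.0144); Padi4 lost its call without control library 1 (adjusted p = 0.0522), control library 4 (adjusted p = 0.0633) and knockdown library 2 (adjusted p = 0.06), and in the fit of 12 it had 0.0546. The glucocorticoid-responsive Ddit4, an inhibitor of mTORC1, fell from 31.7 ± 3.54 to 17.3 ± 4.63 TPM (log2 fold change -0.87, SE 0.214, adjusted p = 0.0405). It was 1 of 2 called lower among 11 genes of that response, against 9.48% of all genes. The number called lower was 1 without control library 1 or 4 or knockdown library 1 or 2 or 3, and 4 without control library 3. Ddit4 lost its call without control library 1 (adjusted p = 0.116), control library 4 (adjusted p = 0.141), knockdown library 1 (adjusted p = 0.0639), knockdown library 2 (adjusted p = 0.0879) and knockdown library 3 (adjusted p = 0.0587). In the fit of 12 it had 0.127.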
